A study of Homo sapiens with 12 samples.

Results

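The IL-1 family ligands and receptors described here are 10 genes of the 25992 gene names on the array. They were chosen by name, and every non-control probe that the array annotation assigns to 1 of these genes is reported, which gave 14 probes. The members are the ligands IL1A, IL1B, IL18 and IL33, the antagonist IL1RN, the receptor chains IL1R1, IL1RAP and IL1RL1, the decoy receptor IL1R2 and the protease gene CASP1.

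IL-1α and IL-1β bind the receptor IL1R1, which signals once the accessory chain IL1RAP has joined it, and the adaptor MYD88 and kinases of the IRAK family then carry the signal to NF-κB and AP-1. IL1RN occupies IL1R1 without signalling, and IL1R2 binds the ligand without passing a signal on. Caspase-1, which inflammasomes activate, cuts the precursors of IL-1β and IL-18 into their active forms, and tubular epithelium is known as a source of IL-18 in kidney injury.

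RNA of 2 human proximal tubular cell lines, HK-2 (immortalized with papillomavirus genes) and RPTEC/TERT1 (immortalized with telomerase), was hybridized to 12 one-color Agilent arrays. Starved cultures at normal glucose were left without ligand (control) or received IL-1β at 10 ng/mL or Empa (empagliflozin, an SGLT2 inhibitor) at 500 nM for 24 h, and no array combined these agents. Every line and treatment has 2 arrays, and each of the 4 slides held the control, IL-1β and Empa arrays of 1 line and replicate number. The methods call the replicates biological, and the number of arrays limits the precision. Unless stated otherwise, p-values come from a fit with the slide as a block. They measure the spread that remains between arrays after the levels of the slides are removed.

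The signal of a probe is given as log2 relative to the 75th percentile of its array, so 0 is the level of that percentile. The percentile lay between 230 and 551 signal units, and the share of probes that the scanner software marks as well above background ranged from 52.7% to 63.1% per array. Signals were raised to at least 1 signal unit, which corresponds to a log2 value of -8.29, and values of probes that are not well above background depend on that floor. A fold against an array that is not well above background is therefore given as a lower bound, computed against the higher of the probe's own signal and the lowest signal well above background on that array. Saturation affected 0 of the 14 probes.

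The line labels are not settled by the data. The sample titles name both lines, while another label gives HK-2 throughout. Pearson's r between control arrays, over the 15329 probes measured above background everywhere, was 0.984 for the slide of HK-2 replicate 1 against that of RPTEC/TERT1 replicate 2. It was 0.973 for the slide of HK-2 replicate 2 against that of RPTEC/TERT1 replicate 1. The control arrays sharing the label HK-2 correlated with 0.880, and those sharing the label RPTEC/TERT1 with 0.875. The IL-1β and Empa arrays ranked likewise, and over all treatments r was 0.960 to 0.984 for these slide pairs across labels and 0.852 to 0.880 within a label. These correlations run across probes, which are not independent replicates. Lines are therefore named as the titles label them, and values on the 4 slides are given in the order HK-2 replicate 1, RPTEC/TERT1 replicate 2, HK-2 replicate 2, RPTEC/TERT1 replicate 1, so that slides that are alike stand together.

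**Figure D1:**
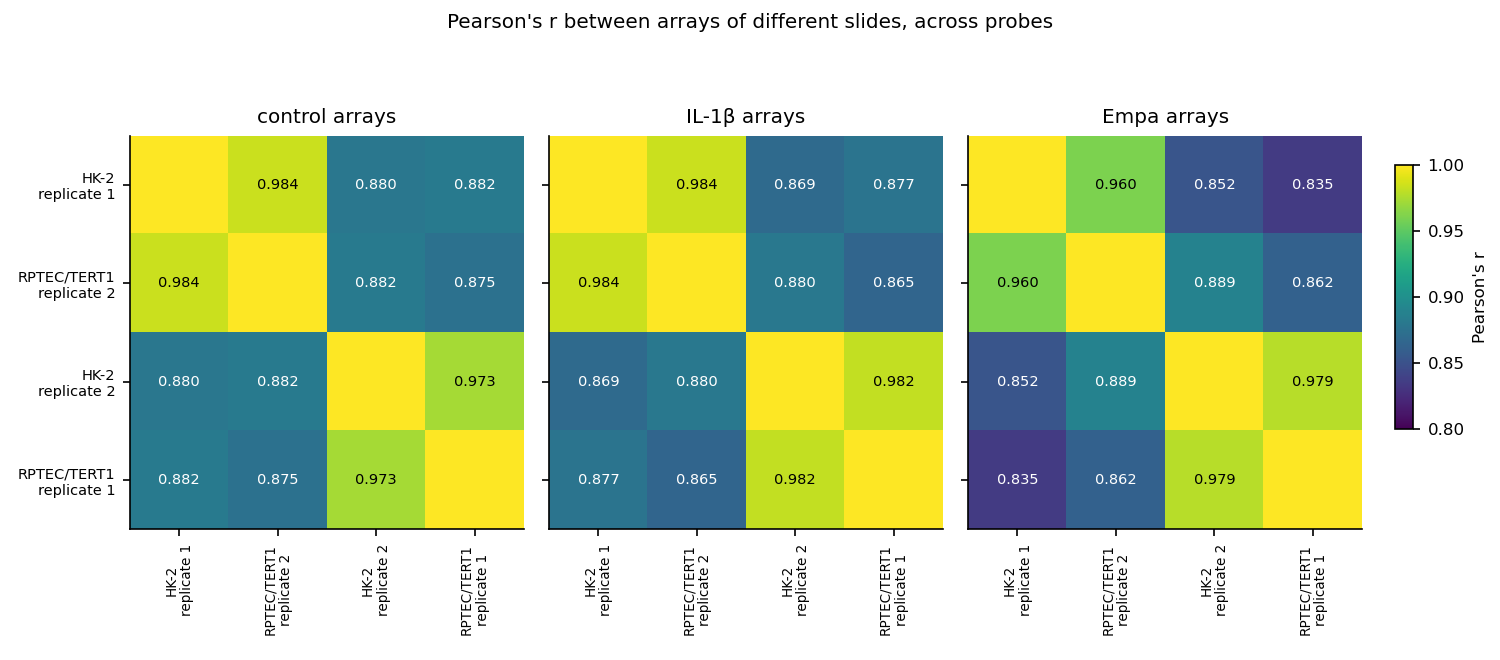
Pearson's r across 15329 probes between arrays of different slides, for control, IL-1β and Empa arrays, with slides labelled by line and replicate. The pair HK-2 replicate 1 with RPTEC/TERT1 replicate 2, like the pair HK-2 replicate 2 with RPTEC/TERT1 replicate 1, reaches 0.960 to 0.984, and slides of the same label stay between 0.852 and 0.880.

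The cells carried some of the proximal tubule markers. Of 11 such genes, 9 passed the filter on dim probes (well above background on at least 3 of the 12 arrays), 6 were well above background on all 12 arrays, LRP2 and SLC5A2 among them, and HNF4A was well above background on 0 arrays. Of 3 basal epithelial markers, KRT5 and KRT14 were well above background on 0 arrays and TP63 on 1. Of 5 fibroblast markers 2 passed the filter, with COL1A1 well above background on 11 arrays and DCN (probe A_23_P64873) on 8, at control log2 signals of 3.09 and 3.13 for HK-2 replicate 2 and RPTEC/TERT1 replicate 1, while COL3A1 was on 2 arrays and COL1A2 and PDGFRB on 0. Of 4 endothelial markers 2 passed, CDH5 on 12 arrays and VWF on 3, while PECAM1 reached 1 array and KDR 0. Of 7 leukocyte markers on the array, 5 passed the filter, and the 5 probes of PTPRC disagreed, since 12 arrays measured 2 of them well above background and 0 arrays the other 3.

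IL-1β was compared with control to ask which parts of its own ligand and receptor system the cells altered at the RNA level. At an adjusted p under 0.05 (limma with the slide as a block, Benjamini-Hochberg over 21626 probes) IL1RAP rose on both of its probes, IL1R1 rose on 1 probe only and IL18 fell. Of these calls, only that of IL1RAP probe A_23_P170857 held without any 1 array. CASP1 (higher) and IL1R2 (lower) passed the threshold too. IL1A, IL1B and 1 of the IL1RN probes gave signals well above background only with IL-1β, and only on some slides. Thus 5 of the 10 members were called, against 9.51% of all probes tested (2057 probes, 942 higher and 1115 lower). Of the members, 7 passed the filter with 9 of their 14 probes. CASP1 passed it only through its IL-1β arrays and IL1R2 without any IL-1β array, so CASP1 had to differ and IL1R2 was favoured to, and the count of members called supports nothing by itself. The RNA came from whole cultures, in which fewer cells holding a transcript and less of it per cell cannot be told apart.

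**Figure D2:**
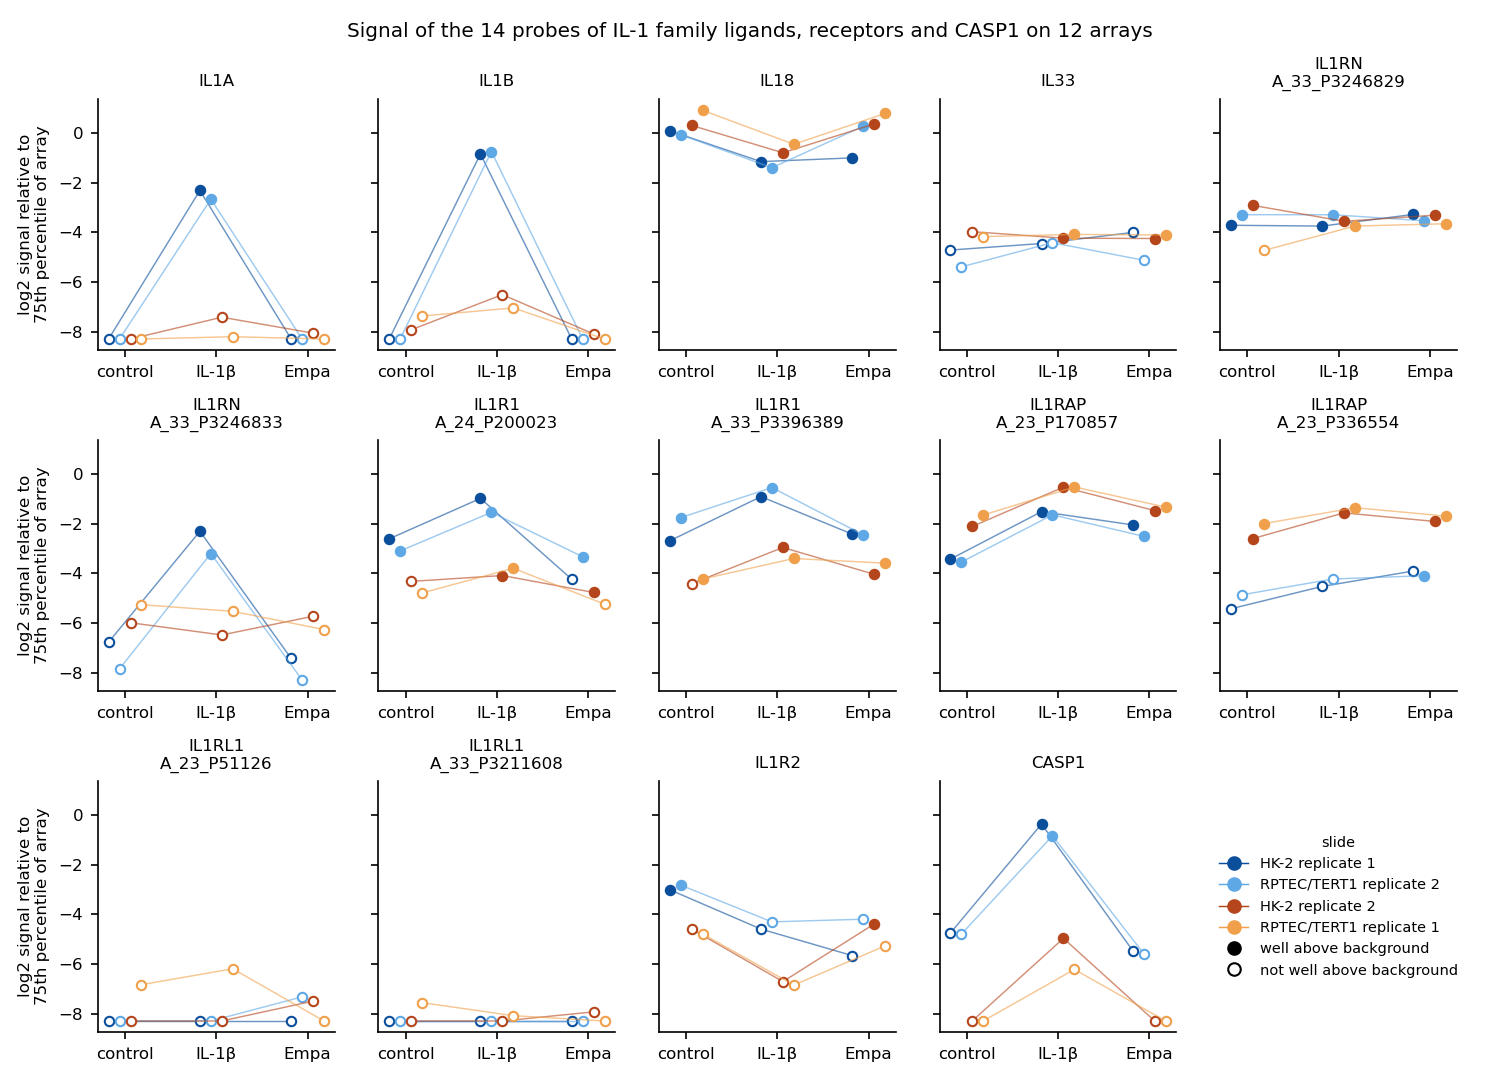
Signal (log2 relative to the 75th percentile of the array) of the 14 member probes on the control, IL-1β and Empa arrays, with a line per slide and open points where a probe was not well above background. IL1A and IL1B are well above background on 2 arrays each, the IL-1β arrays of HK-2 replicate 1 and RPTEC/TERT1 replicate 2, while IL18 is lower with IL-1β on 4 of 4 slides.

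IL1A encodes IL-1α, a ligand that is active without cleavage. On the IL-1β arrays its log2 signal was -2.32, -2.67, -7.41 and -8.19 on the 4 slides. The first pair of values was well above background and the last pair was not, nor was any control or Empa array, where the signal lay between -8.29 and -8.05. IL1A was at least 8.99-fold higher with IL-1β than with control for HK-2 replicate 1, and at least 6.06-fold higher on that of RPTEC/TERT1 replicate 2. Since only these arrays measured it, IL1A did not pass the filter and was not tested.

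IL1B encodes IL-1β itself, and the added protein brings no RNA of this gene. Its log2 signal on the IL-1β arrays was -0.85, -0.75, -6.50 and -7.04. The split was the same as for IL1A, with the slides of HK-2 replicate 1 and RPTEC/TERT1 replicate 2 well above background and all other arrays not. The control arrays gave -8.29, -8.29, -7.92 and -7.36. IL1B was at least 24.8-fold higher with IL-1β for HK-2 replicate 1, and at least 22.8-fold higher on that of RPTEC/TERT1 replicate 2, it was not tested, and on the other slides neither array was well above background. Whether the slide pairs differ in this was not tested, because the pairs were recognised from the data.

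The promoters of IL1A and IL1B are shown because both genes became measurable on the same arrays. That of IL1R2 is shown because its signal was lower with IL-1β, a call that most other settings lost. RefSeq promoter sequences (GRCh38.p14) matched 8 of the 10 members with 17 starts, without IL18 and CASP1. The 250 bases before each start were searched on both strands for AP-1 (TGANTCA), C/EBP (TTNNGNAA) and the NF-κB consensus, which 6.57%, 33.2% and 9.96% of all 35116 promoters hold. Capitals mark the matches in the windows of IL1A (chr2:112784494-112784743, minus strand), IL1B (chr2:112836780-112837029, minus strand) and IL1R2 (chr2:101991710-101991959, plus strand), each 5′ to 3′.
IL1A: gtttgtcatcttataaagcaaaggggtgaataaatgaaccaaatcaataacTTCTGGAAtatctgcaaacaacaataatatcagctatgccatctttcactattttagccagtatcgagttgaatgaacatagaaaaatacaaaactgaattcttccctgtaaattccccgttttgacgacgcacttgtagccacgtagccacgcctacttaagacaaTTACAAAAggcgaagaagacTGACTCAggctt
IL1B: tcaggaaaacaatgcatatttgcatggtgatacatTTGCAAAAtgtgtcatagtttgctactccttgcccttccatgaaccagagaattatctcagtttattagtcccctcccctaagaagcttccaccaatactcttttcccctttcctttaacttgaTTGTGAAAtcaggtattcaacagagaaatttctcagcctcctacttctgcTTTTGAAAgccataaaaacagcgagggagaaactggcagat
IL1R2: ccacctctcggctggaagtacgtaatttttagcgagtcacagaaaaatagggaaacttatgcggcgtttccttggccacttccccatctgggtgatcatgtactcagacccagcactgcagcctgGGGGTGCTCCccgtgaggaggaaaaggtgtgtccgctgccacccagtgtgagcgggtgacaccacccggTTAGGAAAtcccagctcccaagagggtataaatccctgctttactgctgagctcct
The IL1A window held an AP-1 match that begins 12 bases before the start and C/EBP matches at 199 and 32 bases before it. The window of another IL1A start, not shown, overlaps this one. It held the AP-1 site and the nearer C/EBP site again, at 105 and 125 bases before that start, and a further AP-1 match at 55 bases. The IL1B window held C/EBP matches at 215, 91 and 41 bases before the start. In the IL1R2 window the NF-κB consensus matched at 125 bases and C/EBP at 56 bases before the start, and this was the 1 start of 17 with a match to the NF-κB consensus. The window of another IL1R2 start, not shown, held no match. AP-1 matched at 4 of the 17 starts, in IL1A, IL1RN and IL1RL1, and C/EBP at 10 of them. Some windows of IL1A and of IL1RN overlap, so a site can count at more than 1 start. A match describes the letters only.

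IL18 encodes the ligand that caspase-1 activates together with IL-1β, and its probe (hg19 chr11:112020811-112020870, minus strand) was well above background on all 12 arrays. Its log2 signal on the control arrays was 0.08, -0.08, 0.30 and 0.90. With IL-1β it was -1.16, -1.40, -0.80 and -0.46. Every IL-1β value lay below every control value, so the groups did not overlap. IL-1β over control was 0.424, 0.399, 0.467 and 0.389 on the 4 slides, a narrow range across both slide pairs. limma gave a log2 difference of -1.26 (SE 0.25, adjusted p = 0.0172), lower on 4 of 4 slides. The adjusted p was 0.0725 without the control array of HK-2 replicate 1, 0.0512 without the control array and 0.0709 without the IL-1β array of RPTEC/TERT1 replicate 2, with differences of -1.11, -1.34 and -1.14. The call was also lost without the slide of RPTEC/TERT1 replicate 1 (0.0812), RPTEC/TERT1 replicate 2 (0.0911) or HK-2 replicate 2 (0.0789).

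IL33 encodes the ligand of the receptor chain IL1RL1 and is kept in the nucleus as an alarm signal. Its signal lay between -5.39 and -3.97 on the control arrays and between -4.45 and -4.08 on the IL-1β arrays, so the groups overlapped. The probe was well above background on 4 arrays, the IL-1β and Empa arrays of HK-2 replicate 2 and RPTEC/TERT1 replicate 1. No control array measured it above background, so the fitted log2 difference of 0.27 (SE 0.23) rests on dim signals. With no filter on dim probes its adjusted p was 0.576 (limma). Both probes of IL1RL1 (ST2), its receptor, were well above background on 0 of 12 arrays.

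IL1RN, the receptor antagonist, has 2 probes, and they disagreed. Probe A_33_P3246833 gave -2.31, -3.20, -6.48 and -5.53 on the IL-1β arrays and between -7.84 and -5.26 on the control arrays. It was well above background only on the IL-1β arrays of HK-2 replicate 1 and RPTEC/TERT1 replicate 2, the arrays that also measured IL1A and IL1B. It was at least 9.03-fold higher with IL-1β for HK-2 replicate 1, and at least 4.17-fold higher on that of RPTEC/TERT1 replicate 2, and it was not tested. Probe A_33_P3246829, well above background on 11 arrays, gave a log2 difference of 0.08 (SE 0.27, limma adjusted p = 0.894). On the slides where the other probe was bright its IL-1β over control ratio was 0.978 and 0.998. The probes lie at chr2:113891531-113891590 and chr2:113890639-113890698 on hg19 (plus strand), and which IL1RN transcript each one measures was not analysed here.

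IL1RAP, the accessory chain that the IL-1, IL-33 and IL-36 receptors share, rose on both of its probes. For probe A_23_P170857 (hg19 chr3:190368968-190369027, plus strand) the log2 signal on the control arrays was -3.43, -3.55, -2.12 and -1.66. On the IL-1β arrays it was -1.52, -1.65, -0.53 and -0.53. Every IL-1β value lay above every control value, by a narrow margin, and the slides of HK-2 replicate 2 and RPTEC/TERT1 replicate 1 were higher in both treatments. IL-1β over control was 3.76, 3.74, 3.00 and 2.19. The log2 difference was 1.63 (SE 0.20, limma adjusted p = 0.00237), higher on 4 of 4 slides, and the call held without any 1 array or slide. The difference was 0.91 with normexp background correction and quantile normalization together and 0.79 in the authors' table, both called.

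The other IL1RAP probe, A_23_P336554, is annotated to a transcript of the soluble form, which lacks the part that spans the membrane. On the control arrays its log2 signal was -5.43, -4.86, -2.61 and -2.004. With IL-1β it was -4.53, -4.23, -1.57 and -1.36. The first pair of slides was not well above background in either treatment, and on the second pair IL-1β over control was 2.05 and 1.56. The log2 difference was 0.80 (SE 0.21, limma adjusted p = 0.0481), higher on 4 of 4 slides. The call held without the Empa array of HK-2 replicate 1 (adjusted p = 0.0128) and was lost without any other single array, with an adjusted p between 0.0554 and 0.163. It was also lost with normexp and quantile normalization together (log2 difference 0.32), whichever slide was left out, with no filter on dim probes (adjusted p = 0.0762), with the filter on at least 2 arrays (adjusted p = 0.0543) and in the authors' table (log2 difference 0.34, adjusted p = 0.135). With separate effects per labelled line this call was lost as well (limma adjusted p = 0.110).

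IL1R1, the signalling receptor, has 2 probes. For A_33_P3396389 (hg19 chr2:102792046-102792105, plus strand) the log2 signal on the control arrays was -2.69, -1.76, -4.42 and -4.23. On the IL-1β arrays it was -0.92, -0.55, -2.96 and -3.40. The slides of HK-2 replicate 1 and RPTEC/TERT1 replicate 2 were the higher ones in both treatments, the opposite of IL1RAP, and the groups overlapped across slides. IL-1β over control was 3.42, 2.31, at least 2.74 and 1.77. The log2 difference was 1.32 (SE 0.27, limma adjusted p = 0.0206), higher on 4 of 4 slides. The adjusted p was 0.0840 and 0.0668 without the control or the IL-1β array of HK-2 replicate 1, 0.0818 without the IL-1β array of RPTEC/TERT1 replicate 2, 0.0721 without the control array of HK-2 replicate 2 and 0.0563 without that of RPTEC/TERT1 replicate 1, with differences between 1.18 and 1.32. The call was also lost without the slide of HK-2 replicate 1 (0.102), RPTEC/TERT1 replicate 2 (0.0698) or HK-2 replicate 2 (0.101) and with no filter on dim probes (0.0515). With separate effects per labelled line it was lost too (limma adjusted p = 0.0642), as on either pair of alike slides alone (0.0543 and 0.0863). The difference was 0.64 with normexp and quantile normalization together, still called, and 0.52 in the authors' table, where it was not called (adjusted p = 0.0782). Probe A_24_P200023 gave 1.10 (SE 0.36, limma adjusted p = 0.0866), also higher on 4 of 4 slides, and did not pass the threshold.

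IL1R2, the decoy receptor, gave lower signals with IL-1β. Its log2 signal on the control arrays was -3.01, -2.83, -4.59 and -4.79. The IL-1β arrays gave -4.59, -4.30, -6.71 and -6.84. The control arrays of HK-2 replicate 1 and RPTEC/TERT1 replicate 2 were well above background, while the other control arrays and every IL-1β array were not. IL1R2 was at least 2.99-fold and at least 2.78-fold lower with IL-1β on these slides, and no bound can be given where neither array was well above background. IL1R2 entered the test through 2 control arrays and 1 Empa array, so the limma difference of -1.81 (SE 0.48, adjusted p = 0.0491) comes after a choice of probes that favours it, and it rests in part on signals near the floor. With no filter on dim probes the adjusted p was 0.124. The call held without the IL-1β or the Empa array of HK-2 replicate 1 (adjusted p = 0.0500 and 0.0141) or the Empa array of HK-2 replicate 2 (0.0332), and was lost without any other single array (0.0616 to 0.164) and whichever slide was left out. It was also lost with quantile normalization (-1.69), a floor of 5 signal units (-1.40), normexp and quantile normalization together (-0.30) and in the authors' table (-0.22). Separate effects per labelled line lost it too (limma adjusted p = 0.126), as did the filter on at least 2 arrays (0.0577).

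CASP1 encodes the protease that cuts the precursors of IL-1β and IL-18. Its log2 signal on the control arrays was -4.76, -4.80, -8.29 and -8.29. On the IL-1β arrays it was -0.37, -0.84, -4.96 and -6.21. The first 3 of these IL-1β values were well above background, and no control or Empa array was. CASP1 was at least 20.9-fold, 15.6-fold and 1.25-fold higher with IL-1β on those slides. The limma difference was 3.44 (SE 0.44), and its p-value after the filter is not given, since the filter let CASP1 in for its IL-1β arrays. With no filter on dim probes, where every probe entered, the adjusted p was 0.0173. The difference was 2.34 with a floor of 5 signal units (adjusted p = 0.0928), 1.00 with normexp and quantile normalization together (0.0990) and 0.69 in the authors' table (0.0971), none of them called. These last fits were made after the filter.

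**Figure D3:**
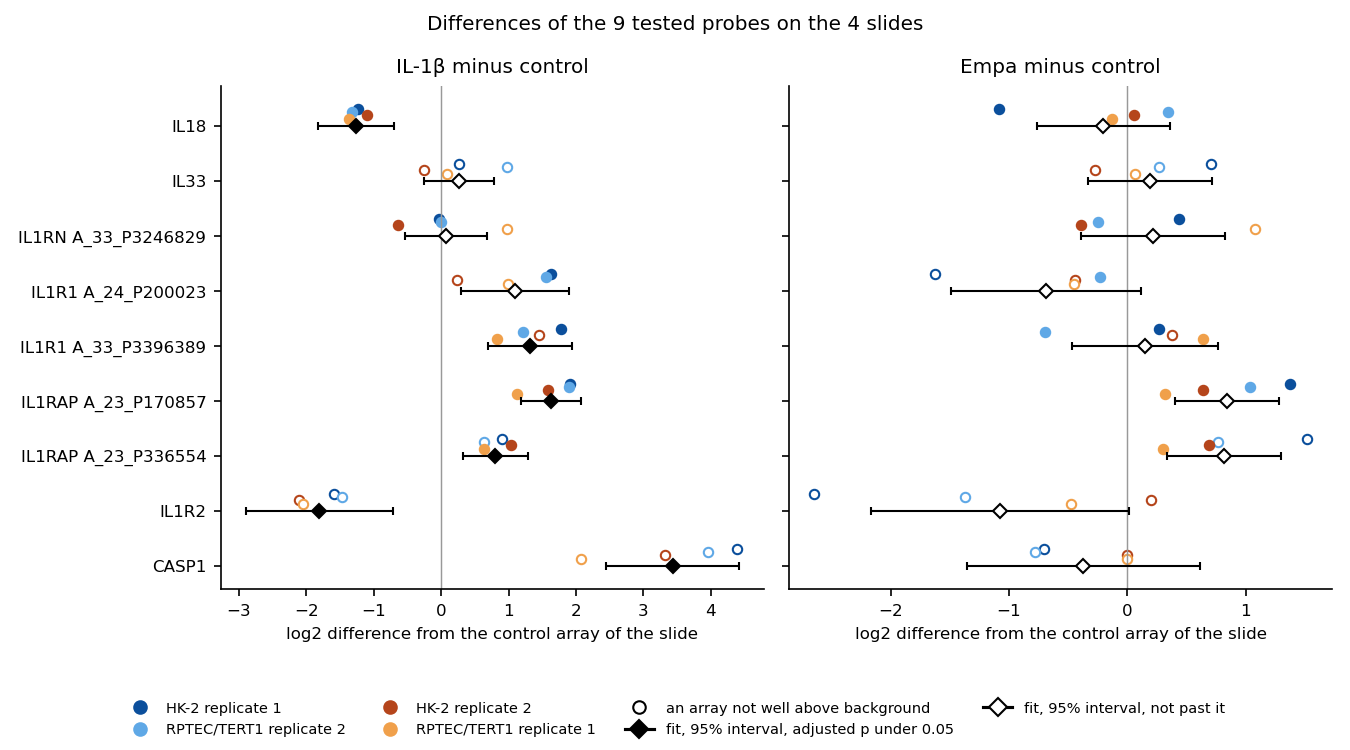
Log2 difference of IL-1β and Empa arrays from the control array of the slide for the 9 tested probes (circles, open where an array was not well above background), with the difference fitted by limma and its 95% interval (diamonds, filled where the adjusted p was under 0.05). With IL-1β, IL18 lies between -1.36 and -1.10 and IL1RAP probe A_23_P170857 between 1.13 and 1.91 on all 4 slides, and with Empa 0 members have a filled diamond.

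All calls depended on comparing arrays within slides. Without the slide in the fit, 7 probes and 0 members were called for IL-1β by limma. With the slides of 1 scan day alone, 0 members were called on either day, and the log2 differences on day 1 and day 2 were 3.23 and 3.64 for CASP1, 1.52 and 1.74 for IL1RAP (A_23_P170857), -1.30 and -1.21 for IL18, 1.30 and 1.33 for IL1R1 (A_33_P3396389) and -1.82 and -1.80 for IL1R2. The difference of the IL-1β effect between the labelled lines was called for 0 of the members and for 0% of all probes by limma (273 probes at an unadjusted p under 0.05). Each label holds 1 slide of either alike pair, so a difference between the pairs adds to the residual spread. This contrast therefore decides nothing on the pairs. For the called probes of IL18, IL1R1 and IL1RAP the sign was the same in every setting tried.

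The other IL-1 family genes were sparsely measured. Of 13 on the array, 7 were tested and 3 were called with IL-1β, against 9.51% of all probes. The median log2 difference was 0.63 over the list's tested probes and -0.04 over all 21626. IL37, an anti-inflammatory ligand, rose by 1.55 on the log2 scale (SE 0.23, limma adjusted p = 0.00596). IL18R1, the ligand-binding chain of the IL-18 receptor, rose (adjusted p = 0.0494) on a probe that was well above background on 6 arrays. It was at least 3.45-fold higher for HK-2 replicate 1, at least 2.35-fold for HK-2 replicate 2 and 1.54-fold for RPTEC/TERT1 replicate 1, and the fitted log2 difference of 2.30 depends on the floor. The other IL18R1 probes, A_33_P3211666 and A_33_P3251876, were each well above background on 1 array and were not tested. On mostly dim signals, A_33_P3211666 was higher with IL-1β on 4 slides, while A_33_P3251876 was higher on 2 and lower on 2. SIGIRR, an inhibitory receptor of the family, fell on probe A_23_P84344 (-0.86, SE 0.15, adjusted p = 0.00974), while its probe A_33_P3259705 gave -0.21 (adjusted p = 0.685).

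Among the others in this list, IL36G resembled IL1A and IL1B. Its log2 signal on the IL-1β arrays was -0.90, -1.79, -6.86 and -5.99, and only the first pair was well above background. It was not tested, and neither were IL36B and IL1RAPL1, each well above background on 1 array, or IL36A, IL36RN and IL1RAPL2, on 0 arrays. IL18BP, which neutralises IL-18, gave 0.69 (limma adjusted p = 0.0635). IL18RAP (A_33_P3221960) gave -0.25, IL1RL2 0.73 and IL1F10 0.57, with adjusted p between 0.436 and 0.647. The other IL18RAP probe, A_23_P28334, was well above background on 2 arrays and was not tested.

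Of 14 genes that act next to the receptor, all were tested and 1 was called with IL-1β, at a list median of 0.15. This count is near the share of all probes called (9.51%). The called gene was IRAK2, a kinase of the complex that forms on the receptor, with log2 signals of -1.72, -1.36, -0.35 and 0.00 on the control arrays. The IL-1β arrays gave 3.74, 3.59, 2.04 and 1.64. The groups did not overlap, and the difference of 3.61 (SE 0.58, limma adjusted p = 0.00761) was higher on 4 of 4 slides. IRAK3, an inhibitor of the same complex, gave 2.82 (SE 0.83, adjusted p = 0.0664) with 2 control arrays at the floor, and MYD88 gave -0.21 (adjusted p = 0.672).

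Of 14 inflammasome and processing genes, 8 were tested and 1 was called with IL-1β, at a list median of -0.06, and this count too is near the 9.51% of all probes. CASP5, an inflammatory caspase, rose (limma adjusted p = 0.0430). IL-1β over control was 2.13, 1.80, at least 1.21 and at least 1.87 on the 4 slides, and the fitted log2 difference of 1.53 depends on the floor, at which the control array of HK-2 replicate 2 lies. CASP4 gave 0.99 (adjusted p = 0.0728), and PYCARD, the adaptor that binds caspase-1, gave -0.95 (adjusted p = 0.0804). NLRP3 was not tested, since its probes were well above background on 0 and 2 arrays, and AIM2, NLRC4 and CARD18 were on 0 arrays.

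The cells responded to IL-1β on every slide. Of 13 known IL-1β response genes that could be tested, 12 rose, at a list median of 5.24 that includes probes not well above background on some control arrays and 4 probes (of CXCL1, CCL2 and SOD2) saturated on 2 arrays each. CXCL1 was called on 1 of its probes only. The other (A_23_P7144) was 27.5-fold and 33.0-fold higher for HK-2 replicate 1 and RPTEC/TERT1 replicate 2. Saturation on 2 arrays makes these folds inexact. On the remaining slides this probe was not well above background in either treatment, so its fitted 1.75 (limma adjusted p = 0.370) depends on dim signals. ZC3H12A, which degrades cytokine RNA, rose by 4.58 on the log2 scale (SE 0.38, limma adjusted p = 0.000482). The chemokine gene CCL20 rose too (adjusted p = 0.00427). It was at least 2529-fold and at least 2219-fold higher for HK-2 replicate 1 and RPTEC/TERT1 replicate 2, whose control arrays lie at the floor, and 160-fold and 128-fold higher on the remaining slides. The other genes that rose were BIRC3, CCL2, CXCL1, CXCL2, CXCL8, IL6, LCN2, NFKBIA, NFKBIZ and SOD2. ICAM1 was the exception (2.20, adjusted p = 0.0569), and CXCL3 and TNFAIP3 had no value on all arrays.

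**Figure D4:**
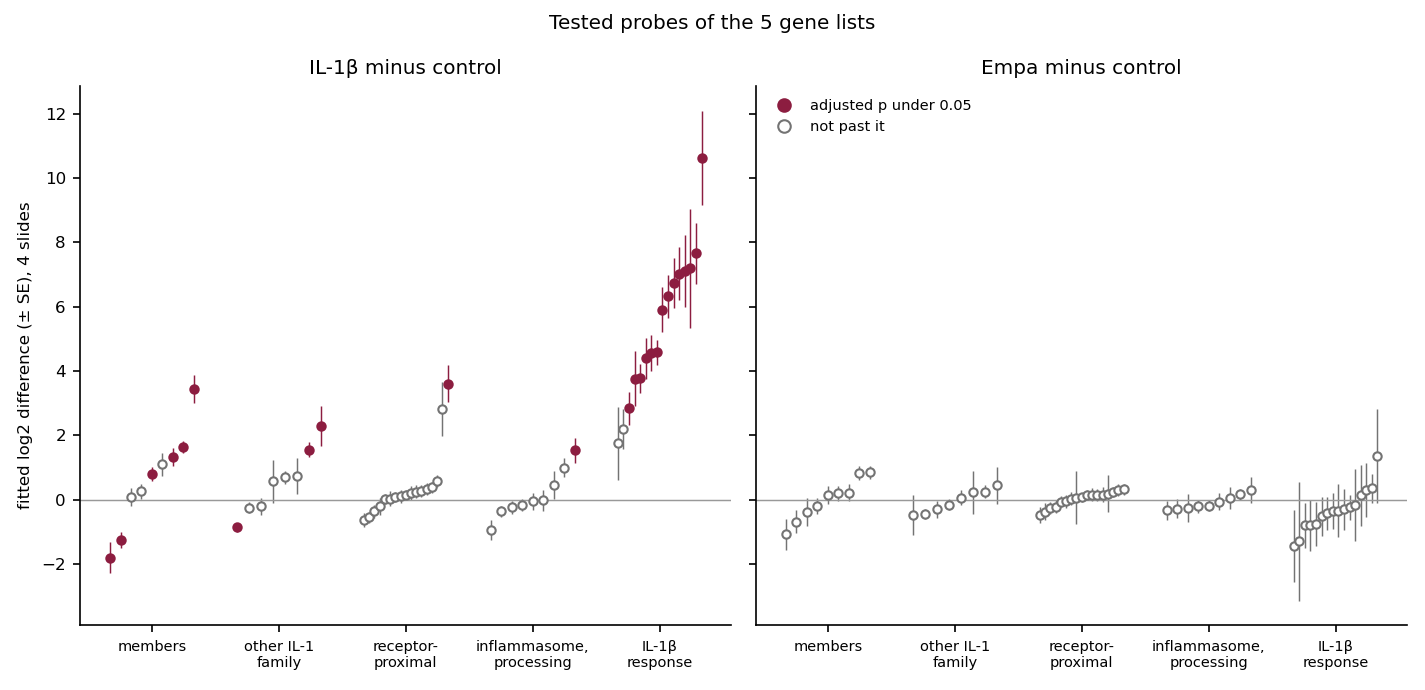
Log2 difference fitted by limma (points, with SE as bars) for the tested probes of the members and of 4 other gene lists, filled where the adjusted p was under 0.05, for IL-1β and Empa. IL-1β gives filled points for 12 of 13 response genes and for 5 of the members, against 9.51% of all probes tested. CASP1 passed the filter on dim probes only through its IL-1β arrays and IL1R2 without any IL-1β array, so the count of members supports nothing by itself. Empa gives 0 filled points in these lists.

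Markers of the cell type moved along with these changes. Of the 9 proximal tubule markers tested, LRP2 (-2.36), CDH16 (-1.50) and SLC34A1 (-1.18, well above background on 4 arrays) fell with IL-1β, at a list median of -0.58. ANPEP and PAX8 of this list went the other way on part of the slides and were not called. For HK-2 replicate 1 and RPTEC/TERT1 replicate 2, IL-1β over control was 5.18 and 4.89 for ANPEP and 2.52 and 2.19 for PAX8. Of 4 epithelial markers tested, CDH1 and EPCAM (-0.90) fell, at a list median of -0.46. CDH1 was 0.106 and 0.0701 of control for HK-2 replicate 1 and RPTEC/TERT1 replicate 2, but its signal was not well above background on the remaining slides. Both KRT18 probes were higher on 3 of 4 slides (0.36 and 0.24) and not called. Of the markers of leukocytes (5 tested, median 0.03), endothelium (2 tested, median -0.29) and fibroblasts (2 tested, median 0.20), 0 were called by limma. Single slides differed more than these medians. For HK-2 replicate 1 and RPTEC/TERT1 replicate 2, the slides on which IL1A and IL1B were measured with IL-1β, the leukocyte marker CD68 was 6.42-fold and 4.78-fold higher and the fibroblast marker DCN (A_23_P64873) at least 2.87-fold and at least 3.28-fold higher with IL-1β. Other members of these lists differed. COL1A1 was 0.506 and 0.614 of control on these slides, and DCN probe A_33_P3382856 lay at the floor in both treatments. For HK-2 replicate 1, ITGAM was 0.299 and CD14 0.489 of control. For RPTEC/TERT1 replicate 2, CD14 was at least 2.43-fold higher, and ITGAM was not well above background in control. The part of these shifts in the values of the members was not tested.

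Empa was compared with the same control arrays, to ask whether SGLT2 inhibition without a cytokine altered the system. Of the 10 members, 0 were called by limma, against 0.00462% of all probes (1 probe, DHRS2, of 21626), and 2356 probes had an unadjusted p under 0.05. The nearest to a change was IL1RAP. Its probe A_23_P170857 gave -2.05, -2.51, -1.48 and -1.34 on the Empa arrays. Each value lay above the control value of its slide, with ratios of 2.60, 2.05, 1.56 and 1.25, and the groups overlapped. The log2 difference was 0.84 (SE 0.20, limma adjusted p = 0.310), and the probe of the soluble form gave 0.82 (SE 0.21, adjusted p = 0.316), also higher on 4 of 4 slides.

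IL1R2 gave -5.66, -4.20, -4.39 and -5.27 on the Empa arrays, well above background on that of HK-2 replicate 2 only. It was at least 4.20-fold and at least 2.58-fold lower than control on the slides of HK-2 replicate 1 and RPTEC/TERT1 replicate 2, but at least 1.15-fold higher on that of HK-2 replicate 2. The fitted difference was -1.07 (SE 0.48, limma adjusted p = 0.462). IL18 gave -1.01, 0.27, 0.35 and 0.78 on the Empa arrays, lower than control on 2 of 4 slides, and the array of HK-2 replicate 1 was the low one. Its difference was -0.20 (SE 0.25, adjusted p = 0.757). IL1A, IL1B, IL1RL1 and CASP1 were well above background on 0 Empa arrays.

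The remaining tested probes gave Empa differences between -0.69 and 0.22 on the log2 scale, with adjusted p by limma between 0.502 and 0.843. They were IL1R1 (-0.69 for A_24_P200023 and 0.15 for A_33_P3396389), IL33 (0.19), IL1RN (0.22 for A_33_P3246829) and CASP1 (-0.37, between signals that were not well above background). IL1R1 probe A_24_P200023 was lower than control on 4 of 4 slides, at least 3.08-fold for HK-2 replicate 1, while A_33_P3396389 was higher on 3 of 4. The difference of the Empa effect between the labelled lines was called for 0 members and for 0% of all probes (213 probes at an unadjusted p under 0.05). As with IL-1β, this contrast decides nothing on the alike slide pairs. In the other lists 0 genes were called with Empa.

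The genes most like each tested member were looked for over the 12 arrays after subtracting the mean of each slide, among probes well above background on at least as many arrays as the member's brightest tested probe. The arrays share slides and treatments. The 3 genes with the highest Pearson's r are named in that order, and Spearman's rho, given after r, would order some of them otherwise. For CASP1, which was well above background on 3 arrays only, they were the chemokine gene CXCL2 (0.993 and 0.926), CDH4 (0.993 and 0.977) and GATC (0.992 and 0.986). For IL18 they were TBCC (0.980 and 0.902), TTC12 (0.980 and 0.881) and ZNF20 (0.977 and 0.965). IL1RAP had FNBP1 (0.988 and 0.986), SLC33A1 (0.988 and 0.979) and LSM6 (0.986 and 0.972). IL1R1 had BPGM (0.980 and 0.944), LOC401127 (0.975 and 0.986) and LIX1L (0.972 and 0.923). Next to IL1R2, also well above background on 3 arrays only, stood ASTN2 (0.975 and 0.965), TNS2 (0.955 and 0.944) and TRIOBP (0.952 and 0.881). IL33, well above background on 4 arrays only, had a transcript with no gene symbol in the annotation (0.979 and 0.958), ZSCAN1 (0.977 and 0.979) and NAV3 (0.974 and 0.944). The ranks for these dim members rest mostly on signals that were not well above background. The values were lowest for IL1RN (A_33_P3246829), with SLC23A3 (0.904 and 0.825), HAAO (0.896 and 0.846) and LINC01554 (0.886 and 0.804).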

How the data were processed

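The authors hybridized Cy3-labelled RNA to 12 one-color arrays and read them with Agilent Feature Extraction 9.5.3.1. The deposited intensity of each spot had its background removed and was detrended by that software, per the file headers, and arrays were not normalized to each other. A deposited table of log2 values, named as quantile-normalized, served as an alternative. Lines, treatments and replicate numbers come from the sample titles.

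Of 44495 spots, 1377 control spots were left out, outlier spots (1.06% to 1.61% per array) were dropped and the spots of a probe were averaged, leaving 33483 of 34127 probes with a value on all arrays. Signals were scaled to the 75th percentile of the array's probes, set to at least 1 signal unit after scaling to a common level, and converted to log2. Different probes of a gene were kept apart. Probes well above background on at least 3 of 12 arrays (21626) were fitted in limma 3.58.1 (R 4.3.3) with the slide as a block and 1 effect per treatment (6 residual degrees of freedom) and p-values adjusted after Benjamini-Hochberg at a threshold of 0.05. The difference between labelled lines was an interaction in a separate limma fit of the same probes, with the slide and treatment by line (4 residual degrees of freedom). The fit was also tested on simulated data.

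The block is the slide, which the design gives: each slide holds the 3 treatments of 1 line and replicate number. Deviations from the group means correlated across probes with r between 0.592 and 0.906 for arrays that share a slide. These are 6 distinct values, since with 2 arrays per group both slides of a label mirror each other, and the slides of a label are unlike in every treatment, so they do not test the pairing. Alternatives were the fit without the block, separate effects per line, quantile normalization, normexp with an offset of 50 followed by quantile normalization, the authors' table, a floor of 5 signal units, other filters on dim probes, 1 probe per gene, outlier spots kept, each array or slide left out, subsets of 2 slides and an unpaired t-test. The paper names that t-test for its PCR and ELISA data. A filter on at least 2 arrays was added after seeing the data.

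The genes named are all 10 members with every probe, the genes of the other IL-1 family list, called genes of the other lists and the 3 genes with the highest Pearson's r to each tested member. MYD88, IRAK3, CASP4, PYCARD, NLRP3, AIM2, NLRC4, CARD18, ICAM1, CXCL3, TNFAIP3, DHRS2 and the markers named as not called, were picked after their values were seen. The members and lists were chosen with earlier results of these data known. Probe positions are on hg19, from the array annotation, and exons and untranslated regions were not analysed here. Promoters are from RefSeq (GRCh38.p14). Figures were drawn with matplotlib 3.10.9.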

Additional observations from a re-analysis of the deposited data

How the results depend on the processing

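The calls rest on the comparison within slides. With the block left out, 7 probes and 0 members were called for IL-1β and 0 probes for Empa, and the pairing of arrays by slide was taken from the design. With the block and separate effects per labelled line, the counts were 680 of 21626 probes, 3 members (CASP1, IL18 and IL1RAP) and 0 Empa probes. The filter let CASP1 in through its IL-1β arrays only, so its place in this count supports nothing.

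For IL-1β probes, the main count was 2057. It was 2 with HK-2 slides alone, 0 with RPTEC/TERT1 slides alone, 0 on those of scan day 1, 0 on those of scan day 2, 2199 on HK-2 replicate 1 with RPTEC/TERT1 replicate 2, 1348 on HK-2 replicate 2 with RPTEC/TERT1 replicate 1, and 39 by the unpaired t-test after Benjamini-Hochberg (2447 unadjusted). Leaving out an array or a slide gave 330 to 3349. It was 747 without HK-2 control replicate 1, 1063 without HK-2 IL-1β replicate 1, 3349 without HK-2 Empa replicate 1, 1307 without RPTEC/TERT1 control replicate 1, 751 without RPTEC/TERT1 IL-1β replicate 2 and 970 without HK-2 control replicate 2, was lower than all of these without RPTEC/TERT1 control replicate 2, and lay between 330 and 1013 without a slide.

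For IL-1β members, the main count of 5 became 3 with normexp and quantile normalization together, 2 in the authors' table, 3 with a floor of 5 signal units, 3 without a filter on dim probes, 2 with a filter on all 12 arrays (2 members tested), 0 in each single line and scan day, 2 on HK-2 replicate 1 with RPTEC/TERT1 replicate 2, and 2 by the unpaired t-test (0 after Benjamini-Hochberg). Leaving out an array or a slide gave 2 to 5. The count was 2 without HK-2 control replicate 1 or RPTEC/TERT1 IL-1β replicate 2 and 3 without HK-2 control replicate 2 or either RPTEC/TERT1 control. Where the filter let CASP1 in through its IL-1β arrays, the count of members supports nothing by itself.

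For Empa, the 1 probe called became 0 with normexp and quantile normalization together, the authors' table, a floor of 5, no filter, the filter on all 12 arrays, each subset of 2 slides and the t-test after Benjamini-Hochberg (768 unadjusted), and 0 to 3 when an array or slide was left out. Members called stayed at 0 in all settings. Probes whose IL-1β or Empa effect differed between the labelled lines were 0 in the 8 fits made for each, which left out no array. These contrasts cannot show a difference between the alike slide pairs.

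No called difference changed sign. Sign changes occurred in differences that were not called. For IL1RN (A_33_P3246829) with IL-1β the value was -0.014 in the authors' table, -0.34 on slides labelled HK-2, -0.32 on scan day 2, -0.018 on HK-2 replicate 1 with RPTEC/TERT1 replicate 2, and -0.23 to 0.32 on leaving out arrays or slides. With Empa it was -0.017 in the authors' table, -0.32 on scan day 2 and -0.076 to 0.44 on leaving out. IL1R1 (A_33_P3396389) with Empa was -0.028 on slides labelled RPTEC/TERT1, -0.16 on scan day 2, -0.21 on HK-2 replicate 1 with RPTEC/TERT1 replicate 2, and -0.10 to 0.43 on leaving out. IL18 with Empa was 0.11 on slides labelled RPTEC/TERT1, 0.20 on scan day 2 and -0.40 to 0.10 on leaving out. IL33 with IL-1β was -0.087 on HK-2 replicate 2 with RPTEC/TERT1 replicate 1, and with Empa -0.10 there and -0.0038 on scan day 2. The cause was not tested. Signal over background limits IL1A, IL1B, IL1RL1, IL33, IL1R2 and CASP1, whose dim values depend on the floor.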
